A study of Mus musculus with 2 samples.

Results

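Open chromatin at 9 genes of proximal T cell receptor signalling was described in regulatory T cells of the mouse: Lck, Fyn, Zap70, Lat, Lcp2, Plcg1, Prkcq, Prkch and Themis. The genes were chosen by name, with earlier results of these data known. Their loci were the gene bodies of the GENCODE M21 annotation with 20 kb on either side, and a peak belonged to a locus when its summit lay inside. By this rule 115 of the 34610 peaks of the IDR-thresholded list and 201 of the 58871 peaks of the longer pseudoreplicated list were members, and all 9 genes had some. IDR, the irreproducible discovery rate, measures how well peaks keep their ranks between repeated calls.

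The peaks came from ATAC-seq, in which the Tn5 transposase inserts sequencing adapters into accessible DNA. The only group held primary regulatory T cells of 1 adult male aged 4 months, of the strain Foxp3CreERT2 x Rosa26YFP, which joins an inducible Cre under the control of Foxp3 to a Cre-dependent YFP allele at Rosa26. The labels trace these cells to a haematopoietic cell of the bone marrow and name no treatment. The 2 libraries were technical replicates of 1 biological replicate and entered the same peak lists, so no spread between animals can be given and no difference below was tested across samples.

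T cell receptor signals start when the Src family kinases Lck and Fyn phosphorylate the receptor's CD3 and zeta chains, which then bind and activate the kinase ZAP-70. ZAP-70 phosphorylates the adaptors LAT and SLP-76 (encoded by Lcp2), which gather phospholipase C-gamma 1 (Plcg1). The lipase makes diacylglycerol, an activator of protein kinases C such as PKC-theta (Prkcq) and PKC-eta (Prkch), and a calcium-releasing messenger. Themis, named for its part in thymocyte selection, acts close to the receptor with the adaptor GRB2. Regulatory T cells depend on receptor signals for their development and suppressive function.

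The labelled cell type was set against marker genes. A promoter peak, one that overlaps 1 kb on either side of an annotated transcription start site (TSS) of the gene, was present at 6 of 6 T cell genes and at 5 of 5 regulatory T cell genes, Foxp3 included. It was present at 1 of 2 CD8 T cell genes (Cd8a had none), 1 of 5 B cell genes (Pax5) and 2 of 5 myeloid genes (Spi1 and Cebpa). By the same rule 52.6% of protein-coding genes had a promoter peak. Any peak in the locus was present at all T cell and regulatory T cell genes. It was also present at 1 of 2 CD8 T cell, 4 of 5 B cell and 3 of 5 myeloid genes. The share of other cells in the pool was not tested.

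All 9 genes had a thresholded peak at a promoter, and all 9 had one within 1 kb of the 5′ end of the gene model. Over the 21938 protein-coding genes, 52.6% had a promoter peak by the first rule and 48.6% by the 5′ end rule. In the pseudoreplicated list the members stood again at 9 of 9, against 57.7% of protein-coding genes. The highest thresholded promoter signal per gene had a median of 12.5 at the members. Over protein-coding genes with a promoter peak it was 17.3. More than 4 peaks lay in 8 of the 9 loci, Lat being the exception, whereas 16.4% of protein-coding genes had more than 4.

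The members had a median of 9 peaks per locus (interquartile range 6 to 20), against a median of 2 over protein-coding genes (0 to 4). The member loci were longer, with a median of 85.4 kb against 57.4 kb. Per 100 kb of locus the median was 9.83 peaks at the members and 2.34 over protein-coding genes. The greatest density was at Prkch, with 14.6 peaks per 100 kb, followed by Lck with 13.8 and Prkcq with 13.0. Lck reached this in a locus of 65.3 kb, while those of Prkcq and Prkch spanned 169 and 233 kb. Lat (4.37) and Themis (1.96) were the sparsest, and 55.8% of protein-coding genes had a locus at least as dense as Themis.

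**Figure D1:**
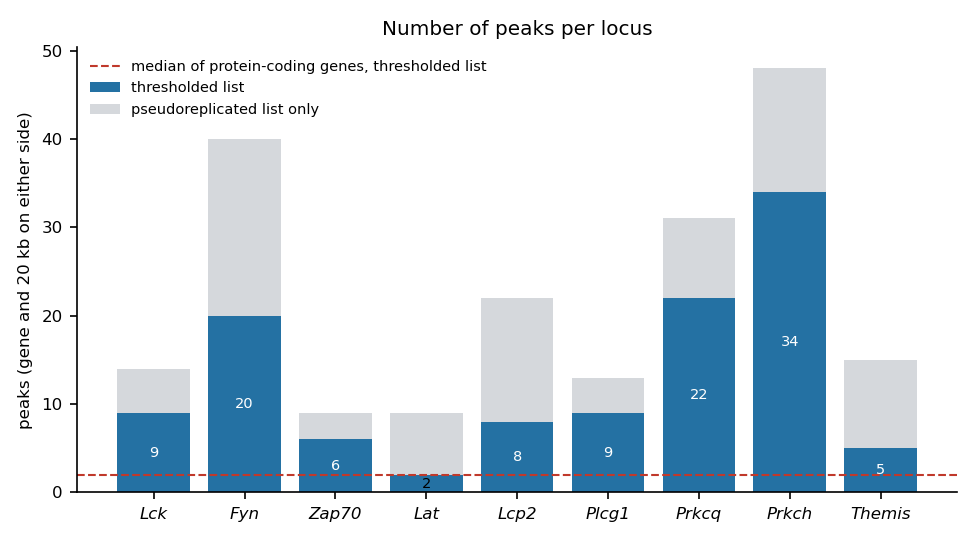
Number of peaks in each member locus (gene and 20 kb on either side), with thresholded peaks in blue, peaks of the pseudoreplicated list only in grey, and the median of protein-coding genes in the thresholded list as a dashed line. Prkch, Prkcq and Fyn stand at 34, 22 and 20 thresholded peaks, and Lat sits on the dashed line with 2.

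Most member peaks lay inside introns, mainly those of the long genes Prkch, Fyn and Prkcq. Of the 115, 80 were intronic (69.6%, exact 95% interval 60.3 to 77.8%), against 32.5% in the rest of the list. Prkch held 29 of these, Fyn 18 and Prkcq 15, while Lck had 2 intronic peaks of 9, Zap70 1 of 6 and Lat none of 2. Within 1 kb of any TSS lay 21 (18.3%, 11.7 to 26.5%), against 39.6% in the rest, 13 were intergenic (11.3%, against 24.5%) and 1 was exonic (0.87%, against 3.33%). These intervals are Clopper-Pearson intervals and cover counting error only, and neighbouring peaks of a locus share their gene. The rule takes in whole gene bodies, and its part in the intronic share was not tested. Of the 21 promoter-class peaks, 14 were at a TSS of the member itself, and 7 only at that of a neighbour or of an overlapping gene model, such as Hdac1 beside Lck and Spns1 beside Lat. Gene bodies held 88 peaks (76.5%), and 84 lay in an intron of an annotated transcript of the member, 47 of them (56.0%) in its first intron.

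The peaks were closely spaced and of modest signal. The gap between neighbouring summits had a median of 5.55 kb in the member loci, against 15.5 kb over the whole list. Member gaps were taken only between summits of the same locus, and those of the list along whole chromosomes. The medians are thus not alike in kind, and gaps within other gene loci were not measured. Their signal, the enrichment value that the authors deposited for each peak, had a median of 8.58, against 13.3 in the rest of the list, and 91 of 115 (79.1%) lay below the list's median. Their −log10 p stood nearer the middle, with a median of 105 against 115, and 64 (55.7%) below the list's median. As median percentiles of the list, member peaks stood at 22.6 by signal and 46.8 by −log10 p.

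The same split held on both sides of the promoter class. At the 94 member peaks outside promoters the median signal was 8.18, against 12.1 at the other 20825 such peaks, while the median −log10 p was 97.0 against 83.9. At the 21 promoter-class peaks the medians were 12.2 against 15.4 for signal and 202 against 232 for −log10 p. By signal the members stood lower in both classes, and by −log10 p they stood lower at promoters and higher elsewhere. Among loci, median signal was 7.35 at Prkcq, where the median gap was 4.48 kb, and 14.97 at Themis, where it was 40.9 kb. Lat, with only 2 peaks 7.92 kb apart, had the highest median signal of the members, 22.38. The background against which signal was computed is not given in the sources used here, and the part of peak spacing in the lower signal was not tested.

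**Figure D2:**
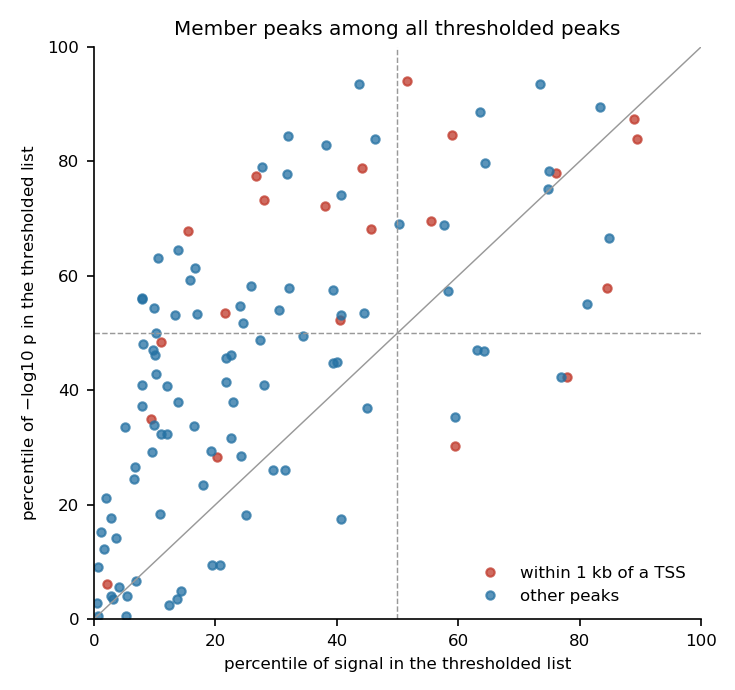
Each point is 1 of the 115 member peaks, placed by its percentile of signal (horizontal axis) and of −log10 p (vertical axis) among all thresholded peaks, with promoter-class peaks in red and others in blue. Most points lie left of the vertical dashed line at the median signal and above the diagonal, as their median percentiles of 22.6 and 46.8 say.

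Lck, the kinase that starts the cascade, lies on the minus strand of chromosome 4 (chr4:129548344-129573641, GRCm38/mm10) and held 9 peaks. Lck is transcribed from a distal and a proximal promoter, the distal one being known as the main promoter of mature T cells. The annotated 5′ end and the TSS of the principal transcript lie 15.2 kb apart, and both had a thresholded peak. At the principal TSS (chr4:129558209-129558983) the signal was 14.2 with a −log10 p of 212. At the 5′ end (chr4:129573375-129573847) they were 7.36 and 200, so the 2 peaks were alike in −log10 p and differed in signal. A further peak just upstream of the distal site (chr4:129575034-129575725) had a signal of 11.2 and the highest −log10 p of the locus, 352. The interval between both promoters held only 2 further thresholded peaks, of signal 6.38 and 6.20. The highest signal of the locus, 18.5, was at the promoter of Hdac1, a histone deacetylase gene 3′ of Lck.

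The parts of both Lck summit windows that lie upstream of the TSS are shown because they carry the contrast between the promoters, with CpG dinucleotides in capitals (GRCm38.p6 reference genome of RefSeq, strand of the gene, and likewise for the sequences that follow).
Lck 5′ end (chr4:129573642-129573781, minus strand): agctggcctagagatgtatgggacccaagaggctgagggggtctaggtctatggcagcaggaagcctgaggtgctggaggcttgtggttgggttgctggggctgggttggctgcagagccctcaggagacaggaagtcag
Lck principal TSS (chr4:129558392-129558572, minus strand): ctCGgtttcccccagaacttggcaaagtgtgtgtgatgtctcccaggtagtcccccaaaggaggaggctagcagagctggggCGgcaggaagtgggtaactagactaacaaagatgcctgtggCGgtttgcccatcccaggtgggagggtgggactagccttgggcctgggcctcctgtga
The whole 200 bp summit windows held 7 CpGs at the 5′ end and 3 at the principal TSS, and in the stretch shown the counts were 0 and 3.

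Fyn, the second Src family kinase of T cells, spans 196.5 kb on the plus strand of chromosome 10 (chr10:39368855-39565381). All of its 20 thresholded peaks lay in the gene body, and a further 20 were in the pseudoreplicated list only. The peak at its TSS (chr10:39369411-39370723) had a signal of 13.5 and the highest −log10 p of all member peaks, 589. Its highest signal, 18.2, was in intron 2, 32.92 kb downstream of the principal TSS (chr10:39402405-39403019, −log10 p 293). Introns 1, 2 and 3 of the gene held most of the rest. A second promoter-class peak, of signal 8.18, had its summit 51.15 kb downstream, 903 bp from an internal TSS.

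Zap70, the kinase recruited to phosphorylated receptor chains, is a compact gene on chromosome 1 (chr1:36761798-36782818, plus strand) with 6 peaks in its locus. The peak at its 5′ end (chr1:36761114-36762127) had a signal of 14.9 and a −log10 p of 377. Peaks 5.24 and 5.61 kb downstream had signals of 11.2 and 5.98. Their summits lay 102 and 472 bp from the same internal TSS. So 3 of the 6 peaks had their summit within 1 kb of a start site of Zap70 itself. The highest signals of the locus belonged to other gene models, 20.8 at the long noncoding RNA model Gm33533 upstream and 19.8 in an intron of Tmem131 downstream.

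The Zap70 window upstream of the TSS is shown, again with CpGs in capitals, because its few CpGs include one inside a cAMP response element (CRE; TGACGTCA), a motif found in 3.31% of the other promoter windows of the list.
Zap70 5′ end (chr1:36761691-36761797, plus strand): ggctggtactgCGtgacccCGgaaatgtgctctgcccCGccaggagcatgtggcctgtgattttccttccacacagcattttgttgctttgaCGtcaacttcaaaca
The whole window held 6 CpGs, 4 of them in the stretch shown.

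Lat, the membrane adaptor on which the signalosome assembles, is the shortest of the 9 genes at 5.75 kb (chr7:126363824-126369570, minus strand). It had the promoter peak of highest signal among the members and the fewest peaks, while the TSS peak of Fyn was higher in −log10 p. Its TSS peak (chr7:126369189-126370012) had a signal of 22.3 and a −log10 p of 424, at percentile 78.0 of protein-coding genes with a promoter peak. The only other thresholded peak of the locus, of signal 22.5, was at the promoter of Spns1, 7.92 kb upstream of the gene. The pseudoreplicated list added 7 peaks, none with a signal above 6.68.

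The upstream part of the Lat window is shown as the promoter of highest signal among the members, with CpGs in capitals.
Lat 5′ end (chr7:126369571-126369667, minus strand): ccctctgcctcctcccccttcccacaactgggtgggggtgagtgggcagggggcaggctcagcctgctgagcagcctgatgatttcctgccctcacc
It held no CpG there, and 6 in the whole window.

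Lcp2, which encodes the cytosolic adaptor SLP-76, lies on the plus strand of chromosome 11 (chr11:34046920-34092295) and held 8 peaks. Its TSS peak (chr11:34046970-34047419) had a signal of 8.43 and a −log10 p of 128, and 3 peaks away from the TSS were higher in both measures. The highest in signal lay 10.40 kb upstream (chr11:34036317-34036750) with a signal of 18.2 and a −log10 p of 261. The highest in −log10 p lay in intron 3, 17.32 kb downstream (chr11:34063631-34064592), with 15.9 and 311. The remaining one of these, upstream of the gene (chr11:34042799-34043187), had 11.4 and 145. The first 6 peaks of the locus also lie within the overlapping gene model 4930469K13Rik, so their position does not assign them to Lcp2 alone. In the pseudoreplicated list only, 14 further peaks lay in the locus, at most 8.93 in signal.

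Plcg1, the lipase that the adaptors recruit, lies on chromosome 2 (chr2:160731300-160775760, plus strand) and held 9 peaks. Its strongest peak was not at the TSS either. The TSS peak (chr2:160730757-160731839) had a signal of 9.29 and a −log10 p of 284. A peak 25.32 kb downstream (chr2:160756427-160757332) had 20.5 and 467. Its summit lies in intron 22 of the principal transcript, in an exon of a retained-intron transcript of Plcg1, and within the overlapping model of Zhx3. Intron 1 held 5 peaks, with signals between 3.16 and 7.05.

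Prkcq encodes PKC-theta, which links the receptor to NF-kB, and spans 129.1 kb on chromosome 2 (chr2:11172108-11301222, plus strand). It held 22 thresholded peaks, and 0.0957% of protein-coding genes had as many or more. Its TSS peak (chr2:11172012-11172601) was the weakest promoter peak of the members, with a signal of 3.93 and a −log10 p of 32.4. Of the protein-coding genes with a promoter peak, 0.139% had a signal as low or lower there. A gene with one of the most peak-rich loci thus had a weak peak at its own start.

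The highest signal of the locus, 18.95 (−log10 p 93.3), was outside the Prkcq gene body, 577 bp from a TSS of the gene model Gm38171. The first intron of Prkcq held 14 of the peaks. Its strongest, 46.22 kb downstream of the TSS (chr2:11218053-11218663), had a signal of 17.8 and a −log10 p of 569. Others stood 15.27 kb downstream (15.8 and 451) and 32.37 kb downstream (12.6 and 367). These intronic peaks exceeded the TSS peak in both measures. A cluster between 30.89 and 33.81 kb downstream packed 5 peaks, of which 4 had signals of 6.09 or less.

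The TSS and the strongest intronic window of Prkcq are shown because they carry this contrast. Capitals mark CpGs in the TSS stretch, and in the intronic window they mark matches to an E-box (CANCTG), RUNX (TGTGGT), ETS (GGAAGT) and forkhead (TGTTTAC) motif, on either strand.
Prkcq 5′ end (chr2:11172031-11172107, plus strand): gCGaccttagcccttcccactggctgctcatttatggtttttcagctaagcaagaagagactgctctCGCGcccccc
Prkcq intron 1 (chr2:11218231-11218430, plus strand): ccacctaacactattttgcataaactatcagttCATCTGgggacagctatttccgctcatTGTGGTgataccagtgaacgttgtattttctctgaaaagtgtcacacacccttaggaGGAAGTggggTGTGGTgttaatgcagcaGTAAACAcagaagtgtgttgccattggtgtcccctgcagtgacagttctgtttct
The intronic window held 2 RUNX matches, 1 ETS match, 1 E-box and 1 forkhead match, and 2 CpGs, while the whole TSS window held 17 CpGs.

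Prkch encodes PKC-eta, a close relative of PKC-theta, and spans 193.4 kb of chromosome 12 (chr12:73584796-73778185, plus strand). It held 34 thresholded peaks, the most of the 9 genes, and 0.0228% of protein-coding genes had as many or more. By signal no single peak dominated the locus, since signals ran only up to 14.98, with a median of 8.16. The 14.98 was at a TSS of the gene model Gm8075, 209.51 kb downstream of the Prkch TSS and outside the gene body. By −log10 p the locus was less even, with a median of 104 and a highest value of 572. The TSS peak (chr12:73584427-73585179) had 12.2 and a −log10 p of 300. Intron 1 held 17 peaks, with signals between 3.49 and 10.1. The peak of highest −log10 p, 572, was in intron 9, 131.26 kb downstream (chr12:73715389-73716284, signal 12.1), and its neighbour 135.76 kb downstream had 10.2 and 376.

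The intron 9 window of Prkch is shown as the strongest window outside promoters in the densest locus of the members. Capitals mark matches to RUNX, NFAT (TGGAAA), CRE and E-box motifs, on either strand.
Prkch intron 9 (chr12:73715957-73716156, plus strand): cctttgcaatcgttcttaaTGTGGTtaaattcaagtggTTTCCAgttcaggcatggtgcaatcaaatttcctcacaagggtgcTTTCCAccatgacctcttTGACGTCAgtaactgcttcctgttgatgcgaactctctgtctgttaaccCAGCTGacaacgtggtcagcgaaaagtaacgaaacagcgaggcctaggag
It held 2 NFAT matches and 1 match each for RUNX, CRE and E-box. The TSS window of Prkch, with 22 CpGs, was the most CpG-rich of the members.

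Themis spans 215.5 kb of chromosome 10 (chr10:28668360-28883818, plus strand), the longest of the 9 genes, and had only 5 thresholded peaks. Their median signal of 14.97 was above that of the list, whereas their median −log10 p of 106 was below it. The TSS peak (chr10:28667945-28668955) had 12.5 and a −log10 p of 202. The peak in intron 2, 61.96 kb downstream (chr10:28730167-28730495), had 20.9 and 193, the highest signal outside promoters in any member locus. Peaks in introns 3 and 4 had 15.7 and 14.98, and 10 more peaks were in the pseudoreplicated list only.

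The intron 2 window of Themis is shown as that strongest member peak outside promoters, with its only motif match, to RUNX on the reverse strand, in capitals.
Themis intron 2 (chr10:28730222-28730421, plus strand): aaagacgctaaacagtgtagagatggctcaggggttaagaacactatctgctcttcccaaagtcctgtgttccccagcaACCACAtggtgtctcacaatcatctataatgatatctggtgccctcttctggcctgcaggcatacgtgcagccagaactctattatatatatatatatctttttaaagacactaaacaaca
Repeat-masked bases made up 76.0% of this window, and it was 1 of 2 among the 94 member windows outside promoters (2.13%) in which they made up 50% or more, against 3.93% in the rest of the list.

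**Figure D3:**
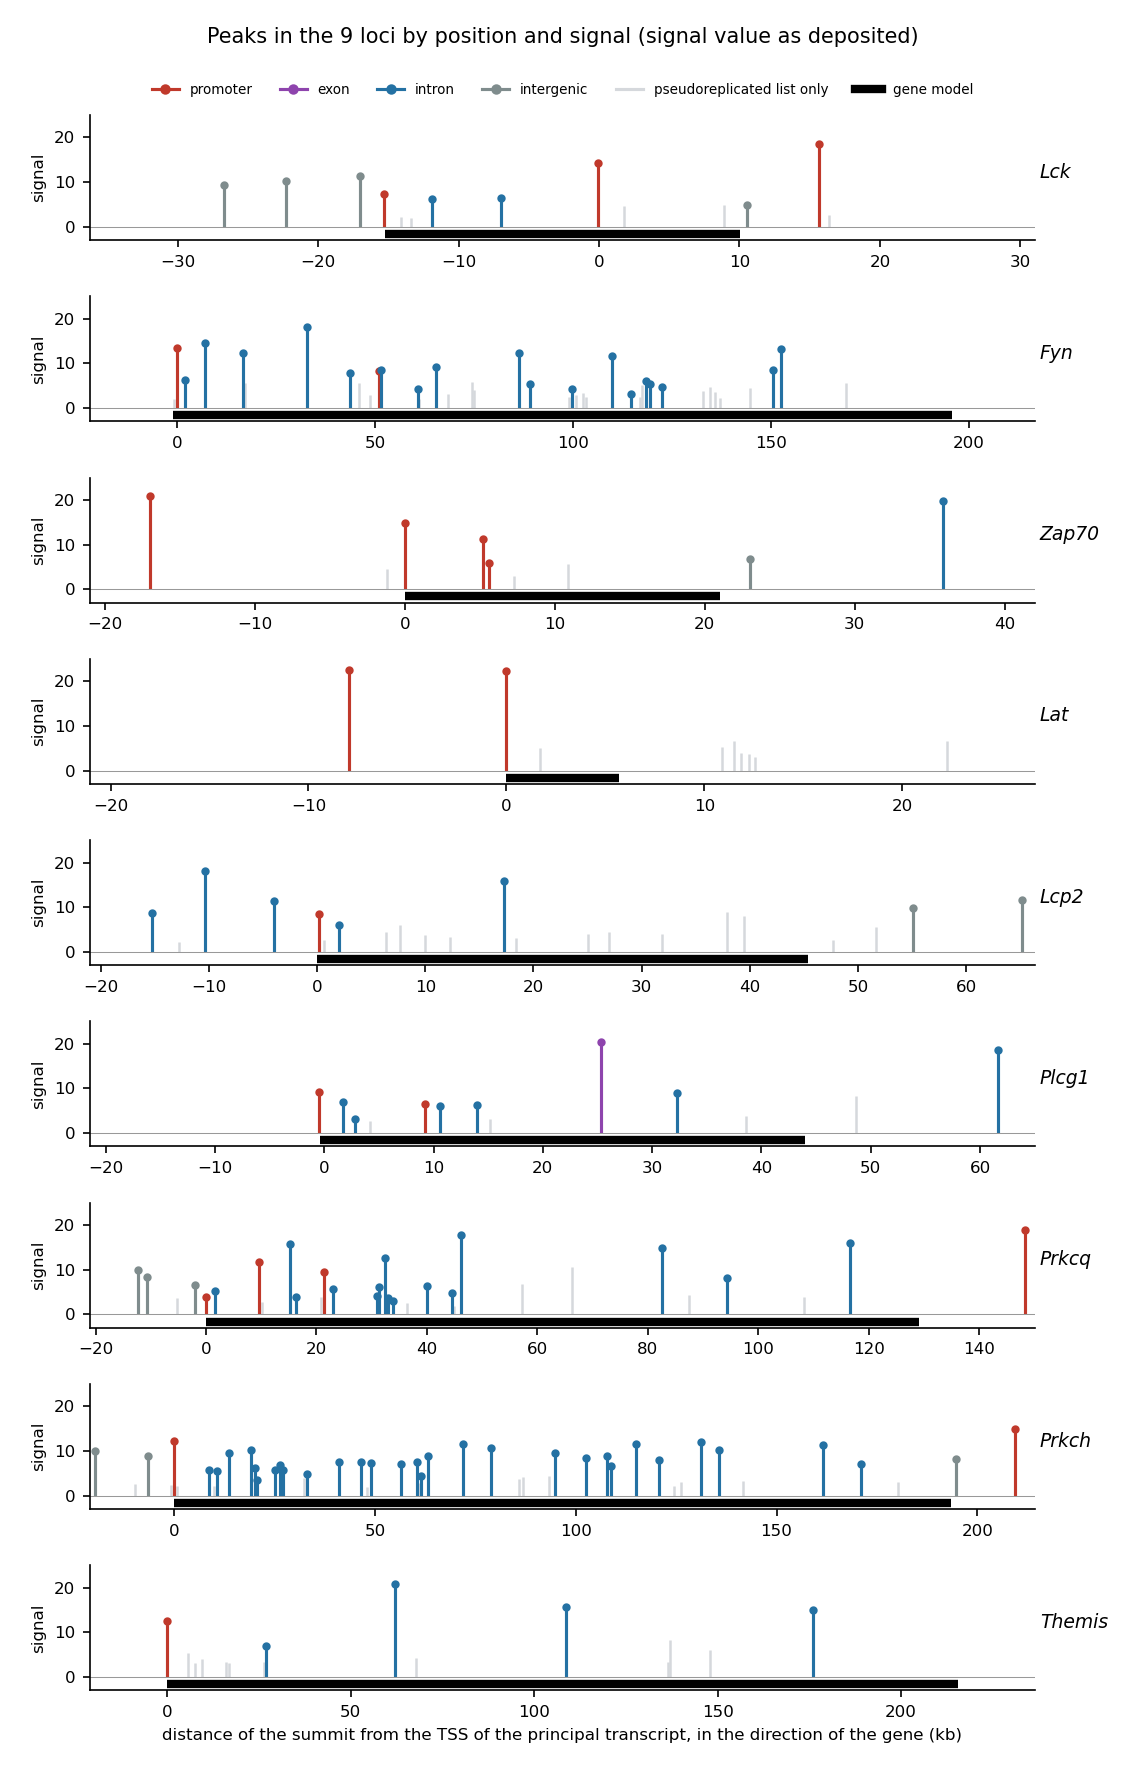
Peaks of the 9 loci by distance of the summit from the TSS of the principal transcript, in the direction of the gene (kb, horizontal axis), and by signal as deposited (vertical axis). Colours give the class of thresholded peaks, grey lines are peaks of the pseudoreplicated list only, and black bars are the gene models, with the weak peak at the Prkcq TSS (3.93), the even row of intronic peaks at Prkch and the sparse, taller ones at Themis.

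By CpG content the start sites of the members fell into 2 sets with a gap between them. Windows at Lck (both sites), Zap70, Lat, Lcp2 and Themis held 2 to 7 CpGs in 200 bp, and windows at Fyn, Plcg1, Prkcq and Prkch held 17 to 22. In the other 13670 promoter windows of the list the median was 14 (interquartile range 7 to 20), with 27.1% at 7 or fewer and 41.1% at 17 or more. Fyn and Plcg1, both in the CpG-rich set, are known to be expressed in many tissues. Expression was not measured here for them, nor for Prkcq and Prkch of the same set. How CpG content goes with breadth of expression was not tested for the members. The GC content of promoter-class windows had a median of 54.0% at the members against 62.0% in the rest, and outside promoters 48.0% against 48.5%.

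Motifs of 13 transcription factor families were searched on both strands in the 200 bp windows. Outside promoters the NFAT motif TGGAAA, named for the calcium-dependent factors that receptor signals activate, was in 26 of 94 member windows (27.7%, exact 95% interval 18.9 to 37.8%), against 17.3% of the other 20825. RUNX was in 28.7% against 26.4%, and ETS in 24.5% (16.2 to 34.4%) against 30.3%. AP-1 (TGANTCA), the partner of NFAT at many target sites, was in 18.1% (10.9 to 27.4%) against 12.9%. The interval of the NFAT share lay above the share in the rest, and those of RUNX, ETS and AP-1 included it. The NFAT interval also lay above the rest in windows of 100 and 400 bp, in the pseudoreplicated list and over every summit. For ETS and AP-1 the reading changed with the setting, as it did for E-box, KLF/SP and CRE below. In windows of 100 bp ETS was in 9.57% (4.47 to 17.4%), below the 21.9% of the rest, and in the pseudoreplicated list AP-1 was in 18.3%, with a lower bound of 12.8%, just above the 12.7% of the rest. With 13 motifs looked at and no replicate, this is a description, and no motif is called particular to the members. The NFAT and ETS motifs share the letters GGAA, but no GGAA can belong to a match of both on the same strand.

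In the 200 bp windows of the thresholded list, for the other motifs the exact interval of the member share included the share in the rest of the list. E-boxes were in 52.1% of member windows outside promoters, against 46.7%, and the AGATAA motif of GATA factors in 9.57%, against 10.4%. TCF/LEF (CTTTGAT) was in 6.38% against 4.63%, and KLF/SP (GGGCGG) in 6.38% against 9.69%. Forkhead and IRF (GAAANTGAA) motifs were each in 4.26%, against 3.82% and 4.26%. CRE was in 3 windows (3.19%, 0.663 to 9.04%), against 0.807%. The NF-kB motif (GGGACTTTC) and the CTCF motif (AGGGGGCGC) were in none of the 94, which allows a share of up to 3.85%, against 0.869% and 1.34%. At this number of windows such low shares could not be told apart. Other settings changed the reading of E-box, KLF/SP and CRE outside promoters. Over every summit E-box was in 56.1% (47.7 to 64.2%), above the 46.1% of the rest. KLF/SP was there in 4.05% (1.5 to 8.61%), below 8.77%. In windows of 100 bp CRE was in 3.19%, with a lower bound of 0.663%, just above the 0.624% of the rest.

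In the 21 promoter-class windows RUNX was in 6 (28.6%, 11.3 to 52.2%), against 11.1% of the other 13670, and ETS in 7 (33.3%) against 26.7%. KLF/SP, whose motif contains a CpG, was in 7 (33.3%) against 52.3%. With 21 windows the intervals are wide, and that of RUNX lay only just above the share in the rest. In the pseudoreplicated list it included that share.

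**Figure D4:**
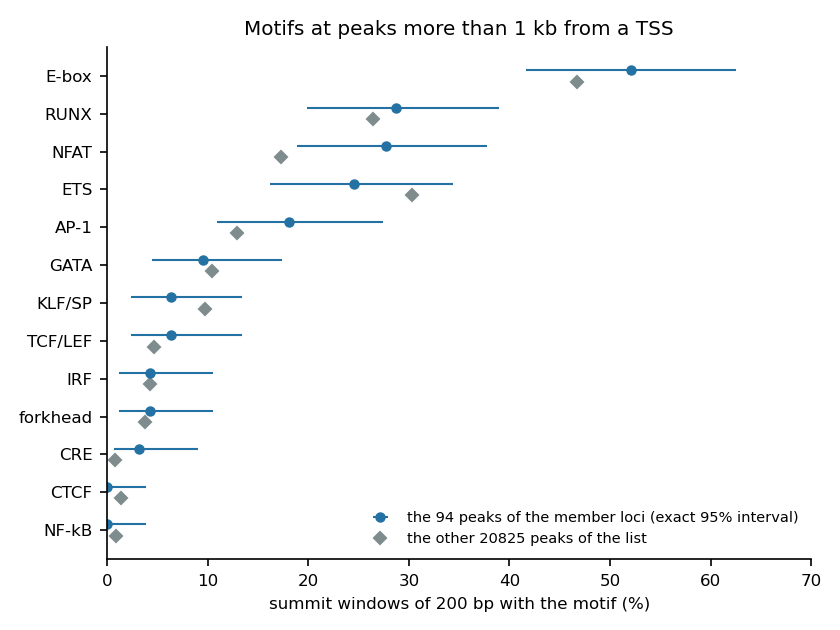
Share of 200 bp summit windows that hold each motif, at peaks more than 1 kb from a TSS, in percent. Blue points with bars are the 94 member windows with exact 95% intervals and grey diamonds the other 20825 windows of the list, with NFAT at 27.7% against 17.3%.

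Paralogues of the members, which often serve receptors of other cell types, had fewer peaks. Of 18 paralogues, 9 had a thresholded promoter peak and 7 had one at the 5′ end, against 9 of 9 members by either rule and 52.6% and 48.6% of protein-coding genes. Their median was 3 peaks per locus, against 9 at the members and 2 over protein-coding genes, and 4 of 18 had more than 4 peaks. In the thresholded list the paralogues thus stood near the background. In the pseudoreplicated list 14 of 18 had a promoter peak, above the 57.7% of protein-coding genes.

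None of the 7 counterparts of Zap70, Lat, Lcp2, Plcg1 and Themis had a thresholded promoter peak. Syk, the relative of ZAP-70 best known from B cells and myeloid cells, had no thresholded peak in its locus, and neither did Blnk, the SLP-76 counterpart of B cells, or Themis3. Lat2, Clnk and Plcg2, the lipase of B cell receptor signalling, had 1 each, and Themis2 had 3. In the pseudoreplicated list Syk, Lat2 and Themis2 had promoter peaks, of signal 3.96, 7.69 and 11.5, while Blnk and Themis3 had no peak at all. So the thresholded list alone does not show that Syk, Lat2 and Themis2 were closed.

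Of 5 other Src family kinases, 3 had a promoter peak, with a signal of 17.9 at Src, 12.6 at Yes1 and 7.77 at Fgr. Lyn and Blk, kinases known from B cells, had none, and in the pseudoreplicated list they had one of 8.76 and 4.24. At Src and Fgr the peak was at an internal TSS and not at the 5′ end. These 5 loci held 1 to 5 peaks, against 9 at Lck and 20 at Fyn.

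The protein kinase C family did not follow this pattern, since all 6 other isozymes analysed had a promoter peak at the 5′ end. The highest were Prkcz with 23.2 and Prkci with 23.0, the atypical isozymes. Prkcd had 11.6, Prkcb 11.6, Prkca 9.86 and Prkce 9.60. All 6 stood above the 3.93 of Prkcq, whose TSS peak was the weakest of these isozymes. By number of peaks Prkch and Prkcq led the family with 34 and 22, ahead of 17 each at Prkca and Prkce, 9 at Prkcb, and 3 or 4 at Prkcd, Prkci and Prkcz. Prkca and Prkce are also the longest of these genes, and per 100 kb they had 3.77 and 3.21 peaks, against 14.6 at Prkch and 13.0 at Prkcq.

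**Figure D5:**
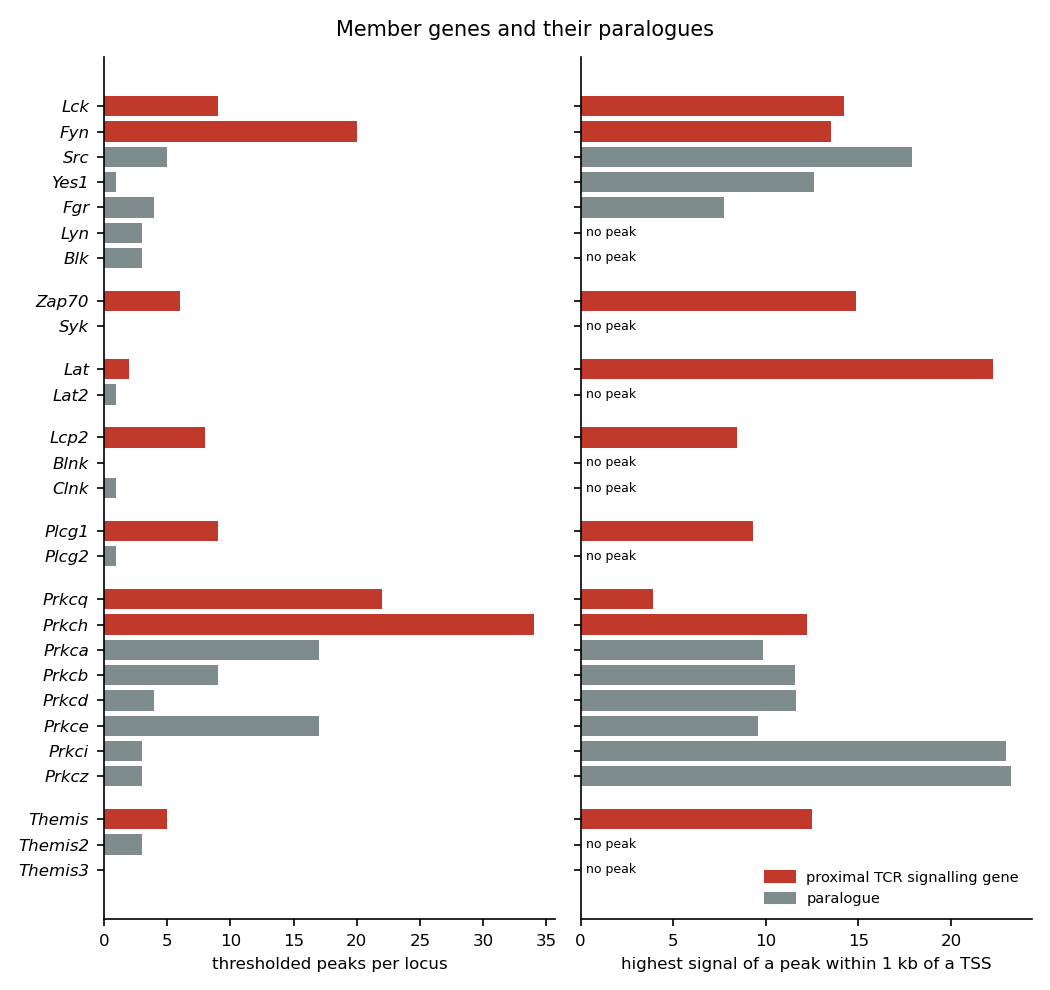
Members (red) above their paralogues (grey), by family. The left panel gives thresholded peaks per locus and the right panel the highest signal of a peak within 1 kb of a TSS of the gene, with 3.93 at Prkcq as the shortest bar and 9 paralogues without such a peak.

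Most other genes of the T cell receptor pathway had a promoter peak too. Of 34 listed kinases, adaptors, exchange factors and calcium channel genes, 33 had a promoter peak (31 at the 5′ end), against 9 of 9 members and 52.6% of protein-coding genes. The highest promoter signals were at Was (27.3), an actin regulator, Skap2 (23.2), an adaptor, and Itpr1 (22.7), a receptor of the messenger that phospholipase C makes. Skap1, the adaptor linking the receptor to integrins, was the only one without, though 8 peaks lay in its locus and the pseudoreplicated list had one of 3.93 at its promoter. The median was 7 peaks per locus, against 9 at the members, and 26 of 34 had more than 4.

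All 115 member peaks were found in the ranked IDR list, which gives a −log10 p for each of 2 inputs. The larger of these values over the smaller had a median of 1.17 at the members and 1.16 in the rest of the list, and its highest value was 2.09 at the members, at a Prkch intron 1 peak 20.11 kb downstream of the TSS. The median −log10 IDR was 2.73 against 2.82, and the lowest was 1.31, at the Prkcq peak 1.60 kb downstream of the TSS. Both sets come from the thresholded list, which was itself chosen by IDR, so these values are no separate measure of reproducibility. Within that list the ratios at the members were near those at other peaks. What the inputs were, such as single libraries or parts of the pooled reads, is not stated.

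The 86 member peaks found in the pseudoreplicated list only were weaker, with a median signal of 3.70 (range 1.93 to 10.6), against 5.01 at the other 24307 peaks of that kind. Of the 86, 63 were intronic (73.3%, against 46.3%) and 11 promoter-class (12.8%, against 18.7%). A further 9 were intergenic (10.5%, against 30.3%) and 3 exonic (3.49%, against 4.74%). Fyn had 20 of them and Lcp2 and Prkch 14 each, while Zap70 had 3. At the edge of the loci, the outermost peaks inside lay 19.80 kb from Lcp2 (signal 11.7) and 19.68 kb from Prkch (10.1). The nearest peaks left out lay 22.79 kb from Lck (15.6), 23.39 kb from Lat (9.95) and 24.27 kb from Zap70 (14.8).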

How the data were processed

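Peaks of ATAC-seq were analysed from 2 libraries, technical replicates of 1 biological replicate. Per the file listings the deposited peak lists came from 1 alignment that both libraries share, on mm10, so nothing was measured per library. The aligner, the peak caller and any transposase shift remain not given in the sources used here. Depth is unknown, since read counts were not part of the lists. The authors deposited a signal and a −log10 p for each line, read by the columns of the narrowPeak format. The ranked list has 3 further deposited scores, a −log10 IDR and the −log10 p of 2 inputs. These values are the authors' own and were used only within a list.

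Lines sharing an interval were reduced to 1 peak at its summit of highest signal. Summits within 1 kb of any TSS were promoter class, then exonic, intronic or intergenic. Coordinates are 1-based on GRCm38.p6 (the assembly of mm10) with GENCODE release 21. Motifs were searched as exact letters on both strands. Python 3.11.15, pandas 2.3.3, NumPy 2.4.6, SciPy 1.17.1 and matplotlib 3.10.9 were used, and the functions were tested on simulated data.

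Members, paralogues, pathway genes, markers and motifs were chosen with earlier results of these data known. All members and 18 paralogues are named, a few other items are not reported here, and of the 34 pathway genes the 3 of highest promoter signal and those without a promoter peak. Their values are descriptions of 1 pooled sample, so no p-value was computed. Alternatives used the pseudoreplicated list, every line, flanks of 5 and 50 kb, any overlap, peaks of at least the median signal or −log10 p, promoter windows of 500 and 2500 bp, 5′ ends or summits only, and motif windows of 100 and 400 bp.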

Additional observations from a re-analysis of the deposited data

How the results depend on the processing

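Of 101 values recomputed under the alternatives, 72 were labelled unchanged and 29 moved. Counts were unchanged within 1.5 times the reported value, and shares within its counting interval. A median signal was unchanged only where it equalled the reported one. The paralogues with a promoter peak, 9 of 18, were 14 in the pseudoreplicated list, where 57.7% of protein-coding genes had one. The count of 115 member peaks (median 9 per locus) was 201 (median 15) in the pseudoreplicated list and 193 (median 14) with every line counted. Of the 115, 24 (median 2) had at least the list's median signal and 51 (median 4) at least its median −log10 p. The median signal of member peaks, 8.58, was 6.05 in the pseudoreplicated list, 7.90 with 5 kb flanks, 9.40 with 50 kb flanks and 6.21 over every line. The promoter share of 18.3% was 37.5% at the median signal, 29.4% at the median −log10 p and 29.6% with a window of 2500 bp.

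Among peaks at or above the list's median signal, promoter peaks were left at 4 of 9 members (all but Prkcq, Plcg1, Themis, Lcp2 and Prkch), 3 of 18 paralogues and 18 of 34 pathway genes, against 39.2% of protein-coding genes. At the median −log10 p 8 members had one, all but Prkcq, against 44.7%. Over all 115 windows, motif shares moved with the window, and so did those in the rest of the list. With 100 bp they were 10.4% against 20.6% in the rest for ETS, 19.1% against 13.1% for RUNX, 14.8% against 6.89% for NFAT, 36.5% against 23.9% for E-box, 4.35% against 3.59% for GATA and 0% against 1.99% for IRF. With 400 bp they were 37.4% against 37.8% for ETS, 40.0% against 30.3% for RUNX, 41.7% against 28.6% for NFAT and 73.0% against 63.3% for E-box. A longer window holds more letters to match. These shares pool both classes, and promoter-class windows were 18.3% of those at the members but 39.6% in the rest. Outside promoters RUNX was in 18.1% against 17.6% with 100 bp and 40.4% against 37.5% with 400 bp. In promoter-class windows it was in 23.8% against 6.39% and 38.1% against 19.3%.

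No paired analysis was possible because the lists pool both libraries and give no value per library, and neither library was left out for the same reason. The unknown depth limits what an absent peak can show.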
